A study of Mus musculus with 13 samples.

Results

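The microRNA miR-139 was followed in small RNA-seq libraries of thymic iNKT cells through its hairpin, mir-139, and both mature arms, miR-139-5p and miR-139-3p. These 3 features (mmu-mir-139, mmu-miR-139-5p and mmu-miR-139-3p) were taken by name from the 2424 in the deposited count tables, 1127 hairpins and 1297 mature sequences. They were chosen by the level of miR-139-5p in WT against Tet2/3 DKO, its large fall in an earlier look at the same mice, so the difference between genotypes is described below without a test. The libraries came from 6 WT mice and 7 Tet2/3 DKO mice, 1 library per mouse, at an age of 21 to 25 days. WT mice were C57BL/6. Tet2/3 DKO mice were Tet2-/- Tet3flx/flx CD4 cre, so that Tet2 is missing from the whole animal and Tet3 is deleted in cells that have expressed CD4. Cells that never expressed CD4 therefore lack only Tet2. The iNKT lineage consists of T lymphocytes whose invariant receptor recognizes lipids presented by CD1d, and all cells were sorted from the thymus.

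A miRNA is cut from a hairpin in its primary transcript, first in the nucleus by Drosha and then in the cytoplasm by Dicer. The resulting duplex has a 5p and a 3p arm, and usually one of them is kept in the Argonaute protein, where its seed pairs with target mRNAs. miR-139 lies inside Pde2a, the gene of a cGMP-stimulated phosphodiesterase that hydrolyses cyclic nucleotides. It is abundant in brain, is often low in tumors, and is counted among the miRNAs that fall when T cells are activated. TET proteins oxidize 5-methylcytosine and so take part in DNA demethylation, and mice lacking Tet2 and Tet3 in T cells have expanded iNKT cells.

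The sequences of the 3 features are shown first, because the counts of the arms and of the hairpin refer to them. In both mature sequences the capitals mark the seed, bases 2 to 8, and in the hairpin they mark both arms. Sequences are those of RefSeq for GRCm38.p6.
miR-139-5p: uCUACAGUgcacgugucuccag
miR-139-3p: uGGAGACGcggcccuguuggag
mir-139: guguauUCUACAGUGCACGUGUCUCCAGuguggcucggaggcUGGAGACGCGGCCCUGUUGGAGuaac

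The hairpin has 68 nucleotides, and each arm has 22 nucleotides and begins with U. The 5p arm takes positions 7 to 28 of the hairpin and the 3p arm positions 43 to 64. The GC content was 54.5% for the 5p arm and 68.2% for the 3p arm. RefSeq held a sequence for 1078 of the 1297 mature names, and apart from both arms none of these shared bases 2 to 7 with either arm. The arms are thus the only carriers of their seeds among the matched sequences.

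On GRCm38 the hairpin spans positions 101475376 to 101475443 of chromosome 7, on the plus strand. The 5p arm lies at 101475382 to 101475403 and the 3p arm at 101475418 to 101475439. All of it is intronic. In a coding transcript of Pde2a, which is on the same strand and reaches from 101421691 to 101512827, it falls in intron 2, 23907 bases after the upstream exon and 5927 bases before the next exon. It also falls in intron 3 of the overlapping gene Gm45837. Host gene transcripts were not measured in these small RNA libraries.

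Total counts per library in the hairpin table were from 469117 to 1110226 in WT and from 728653 to 1910526 in Tet2/3 DKO, and in the mature table from 1110852 to 2582057 and from 1837631 to 4361963. WT libraries were shallower, and WT replicate 1 and Tet2/3 DKO replicate 7 were the shallowest of their genotypes. Levels are given as CPM, the counts scaled to a common library size with TMM factors, so each level is a share of the miRNAs counted in a mouse and not an amount per cell. In bulk samples, fewer cells that express miR-139 and less miR-139 per cell cannot be told apart.

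The mir-139 hairpin was far lower in Tet2/3 DKO. In WT its level was 6863 CPM in the lowest mouse, 9430 at the median and 11311 in the highest. In Tet2/3 DKO it was 328 CPM in the lowest mouse, 443 at the median and 1399 in the highest. No Tet2/3 DKO mouse reached the lowest WT mouse, whose level was 4.90 times the highest Tet2/3 DKO level. Such a separation downward was seen for 14.0% of all tested hairpins and 14.5% of all tested mature sequences. The means were 9366 ± 1638 CPM (SD, n = 6) and 640 ± 383 CPM (SD, n = 7), and the fitted log2 fold change was -3.87 (SE 0.338). The Tet2/3 DKO mean was 6.83% of the WT mean, and single Tet2/3 DKO mice were from 3.50% to 14.9% of it.

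The 5p arm carried most of the mature reads and showed the same separation. In WT, miR-139-5p was 1537 CPM in the lowest mouse, 2218 CPM at the median and 2984 CPM in the highest. The Tet2/3 DKO mice had 67.3 CPM at the lowest, 86.9 CPM at the median and 249 CPM at the highest. The groups did not overlap, and the lowest WT mouse was 6.17 times the highest Tet2/3 DKO mouse. Means were 2232 ± 502 CPM (SD, n = 6) and 132 ± 72.1 CPM (SD, n = 7), and the fitted log2 fold change was -4.07 (SE 0.344). By the size of its fall miR-139-5p was rank 1 of the 401 mature sequences with enough counts to be tested, and this rank is part of why it was chosen. The hairpin was rank 5 of the 350 tested hairpins and miR-139-3p rank 7 of the mature sequences. The counts behind these levels were from 1635 to 5845 per WT library and from 150 to 818 per Tet2/3 DKO library.

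The 3p arm was rare in both genotypes. Its WT levels ran from 16.0 to 40.3 CPM with a median of 19.6 CPM, and its Tet2/3 DKO levels from 0 to 7.11 CPM with a median of 1.02 CPM. Over all libraries of a genotype this was 252 counts in WT and 48 counts in Tet2/3 DKO, and Tet2/3 DKO replicates 4 and 7 had 0 counts. The groups still did not overlap. The means were 24.1 ± 10.3 CPM (SD, n = 6) and 2.00 ± 2.51 CPM (SD, n = 7), and the fitted log2 fold change was -3.61 (SE 0.628). Tet2/3 DKO replicate 3 alone gave 20 of the 48 counts. When it was left out, the fitted value became -4.35.

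**Figure D1:**
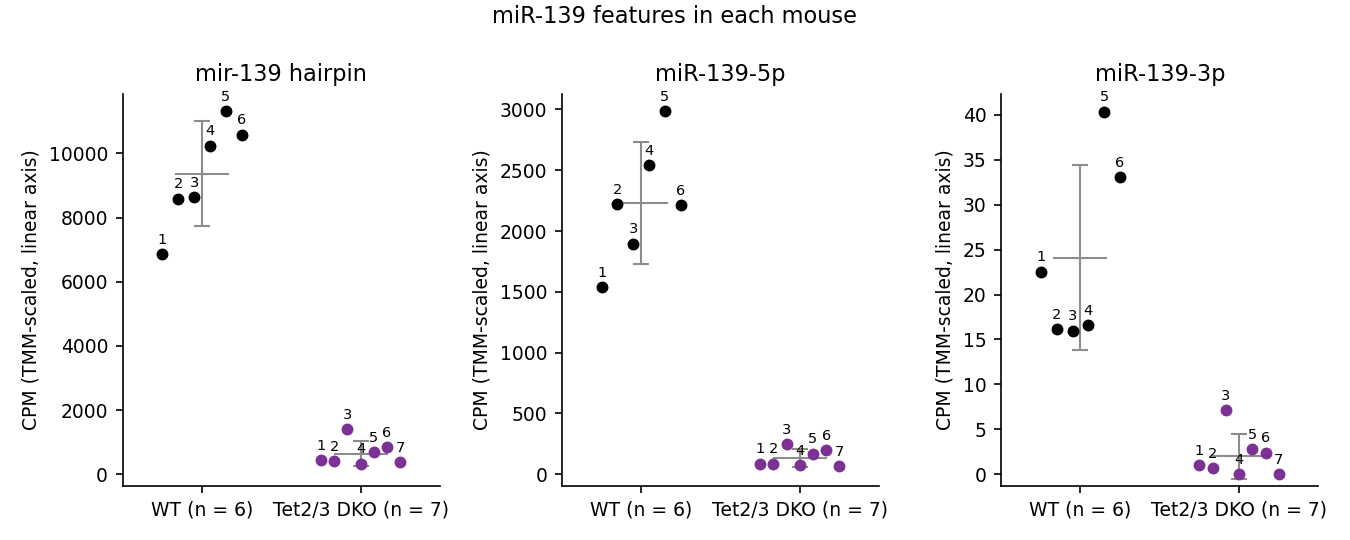
Level of the mir-139 hairpin, miR-139-5p and miR-139-3p in each mouse, in CPM of the TMM-scaled library on linear axes. Points are mice with their replicate numbers, and the grey bar and whiskers are the mean and SD of 6 WT and 7 Tet2/3 DKO mice. In all 3 panels the Tet2/3 DKO points lie below all WT points, with replicate 3 the highest of them.

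In WT, miR-139-5p belonged to the well expressed miRNAs, and in Tet2/3 DKO it did not. By mean CPM it was at rank 46 of the mature sequences in WT and at rank 150 in Tet2/3 DKO. In single mice its rank was from 41 to 58 in WT and from 122 to 176 in Tet2/3 DKO. Its share of all mature counts was 0.202% ± 0.0360 (SD, n = 6) for WT mice, against 0.0141% ± 0.00728 (SD, n = 7) for Tet2/3 DKO mice. The tested mature sequences are from 18 to 26 nucleotides long. By CPM per base the rank was 40 in WT and 114 in Tet2/3 DKO among the 1078 sequences with a known length.

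The neighbours in this order show what these ranks mean. In WT miR-744-5p (2279 ± 167 CPM) was just above miR-139-5p and miR-106b-5p (2128 ± 236 CPM) was just below. Among Tet2/3 DKO levels the places were taken by miR-22-3p (140 ± 30.2 CPM) above and miR-501-3p (128 ± 28.1 CPM) below. All 4 gaps were smaller than the SD of miR-139-5p between mice of that genotype, so the exact rank among near neighbours is not resolved. The hairpin went from rank 29 in WT to rank 99 in Tet2/3 DKO, and from 25 to 94 per base among 1112 hairpins with a known length. The 3p arm went from rank 253 to rank 451.

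**Figure D2:**
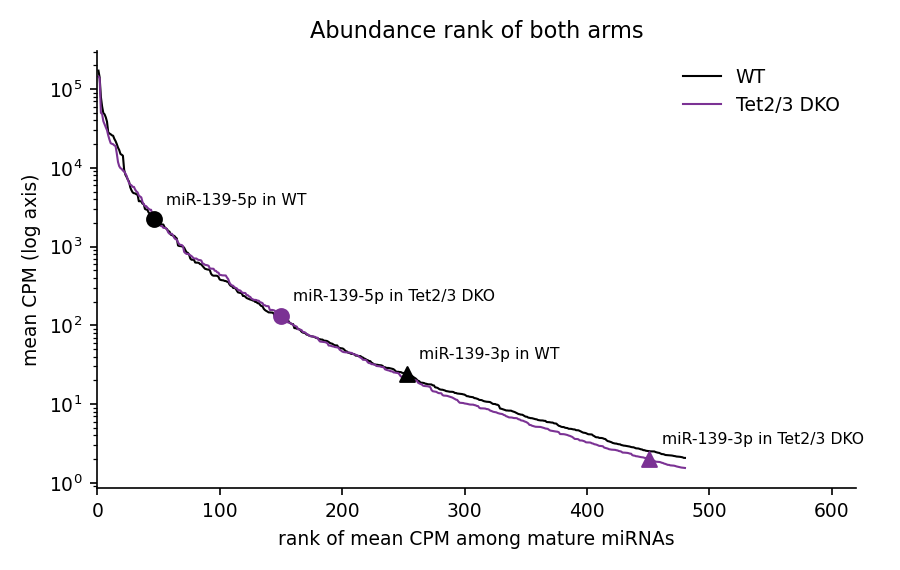
Mean CPM of the mature sequences (log axis) against their rank of mean CPM, for the 480 most abundant in WT (black) and in Tet2/3 DKO (purple). Circles mark miR-139-5p, at rank 46 in WT and 150 in Tet2/3 DKO, and triangles mark miR-139-3p, at ranks 253 and 451.

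The balance between the arms could not be shown to differ. In WT the 3p arm held from 0.647% to 1.47% of the counts of both arms, with a mean of 1.08% ± 0.381 (SD, n = 6). For Tet2/3 DKO mice it was from 0% to 2.78%, with a mean of 1.08% ± 0.972 (SD, n = 7). The highest share was that of Tet2/3 DKO replicate 3, with 20 counts of 3p beside 700 of 5p and a 95% Wilson interval from 1.81% to 4.25%. Replicate 4 had 0 of 347 arm counts on 3p, with an upper Wilson limit of 1.09%. Replicate 7 had 0 of 150, with an upper Wilson limit of 2.50%. Intervals and limits cover counting error of reads only. The sources used here do not say whether reads carried molecular identifiers.

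The arm ratio gives the same picture on a log scale. With 0.5 counts added to each arm, the log2 ratio of 5p over 3p averaged 6.58 ± 0.540 (SD, n = 6) for WT mice and 6.85 ± 1.50 (SD, n = 7) for Tet2/3 DKO mice. The difference of 0.26 (SE 0.608) was smaller than its SE. Its sign depends on how the 2 mice without 3p counts enter. From summed counts the 5p to 3p ratio was 95.9 in WT and 70.9 in Tet2/3 DKO, a log2 difference of -0.44, and without Tet2/3 DKO replicate 4 the mean difference was -0.17. At this depth a modest shift between the arms was not detectable.

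The hairpin table held more reads on mir-139 than the mature table held on its main arm, in both genotypes. Hairpin counts divided by miR-139-5p counts gave from 1.62 to 2.13 in WT, with a mean of 1.79 ± 0.181 (SD, n = 6). In the DKO mice they gave from 1.73 to 2.47, with a mean of 2.10 ± 0.260 (SD, n = 7). The ranges overlap. Taking 58 hairpins that average 1000 counts or more and have no numbered copy, mir-139 was 9th highest by its ratio of hairpin to arm counts in each genotype, where the medians over the 58 were 0.528 in WT and 0.554 in Tet2/3 DKO. Where hairpin counts are below arm counts, as at both medians, not every arm read was also counted on the hairpin. The sources used here do not say whether any read can be counted in both tables, so this ratio is no measure of unprocessed precursor.

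Mice of one genotype differed in miR-139 more in Tet2/3 DKO than in WT. The SD of log2 CPM of miR-139-5p was 0.332 in WT and 0.762 in Tet2/3 DKO. For the hairpin it was 0.264 and 0.752, and for miR-139-3p it was 0.564 and 1.28. The difference between these SDs was not tested. Counting alone would give miR-139-5p an SD of 0.0250 in WT and 0.0756 in Tet2/3 DKO, far under the observed ones.

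Most miRNAs of similar abundance varied less than miR-139 in Tet2/3 DKO. Among mature sequences whose mean count was within 2-fold of that of miR-139-5p, the median SD in Tet2/3 DKO was 0.291, and all 59 were below miR-139-5p. In WT the median was 0.167 and 29 of 33 were below it. Near but outside this window, some sequences varied more than miR-139-5p in Tet2/3 DKO. Examples are miR-211-5p (mean count 238, SD 1.09), miR-6240 (234, SD 0.929) and miR-148a-3p (1312, SD 0.913). Among sequences that also fell, the SD was 0.906 for miR-8117 and 0.740 for miR-486a-5p, both at lower counts. It was 0.256 for let-7b-5p and 0.298 for let-7c-5p. For hairpins of similar count, 50 of 53 varied less than mir-139 in Tet2/3 DKO and 10 of 18 in WT. The same 3 Tet2/3 DKO mice were highest in each feature. Replicates 3, 5 and 6 had miR-139-5p at 249, 168 and 198 CPM, and the other 4 mice were between 67.3 and 86.9 CPM. No mouse of either genotype stood apart from its group by Dixon's test in any of the 3 features. Without replicate 3 the SD of the hairpin was 0.527.

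**Figure D3:**
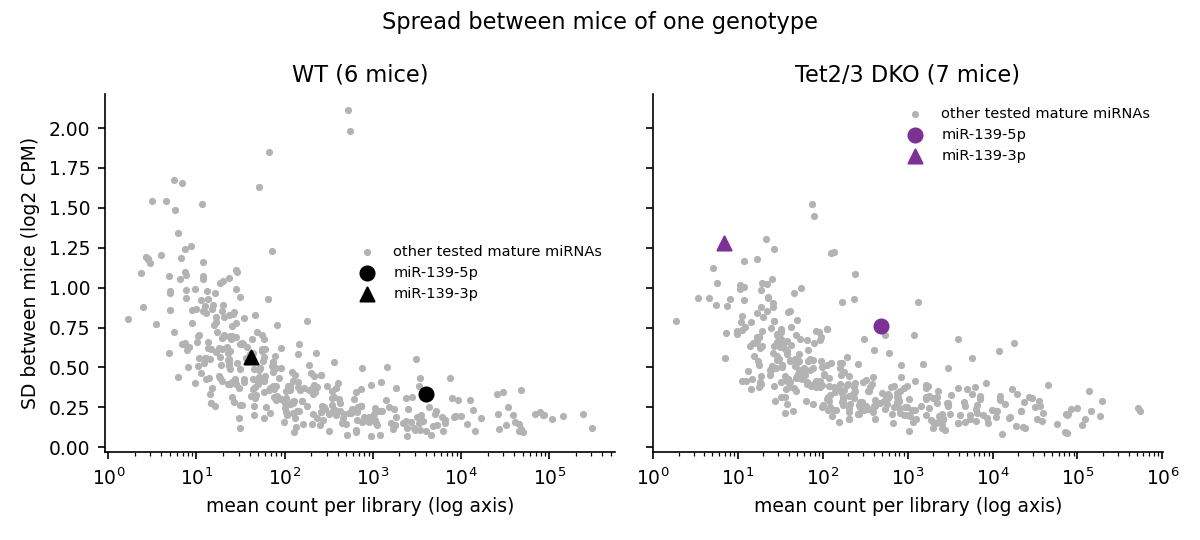
SD of log2 CPM between mice (vertical) against the mean count per library (log axis) for the 401 tested mature sequences, in WT (6 mice) and in Tet2/3 DKO (7 mice). The filled circle is miR-139-5p and the triangle is miR-139-3p. In Tet2/3 DKO the circle, with an SD of 0.762, lies above all sequences whose mean count is within 2-fold of its own.

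The order of the Tet2/3 DKO mice was nearly the same in both arms. Across the 7 Tet2/3 DKO mice, log2 CPM of miR-139-5p correlated with that of miR-139-3p with Pearson's r = 0.954 (exact permutation p = 0.00159, 0.00635 after Benjamini-Hochberg adjustment over 8 values). Spearman's rho was 0.919 (exact permutation p = 0.00714, adjusted 0.0143). The 3p counts behind these values were 4, 3, 20, 0, 11, 10 and 0 in replicates 1 to 7. The order of the lower mice thus rests on very few counts, and replicates 4 and 7 are tied. Without replicates 3 and 6, the 2 mice farthest from the median of miR-139-5p, r was 0.932. The permutation treats the 7 mice as exchangeable, although replicates 5 and 6 shared some pattern between genotypes, as described below. With the hairpin, r was 0.967 and rho was 0.929, and r without these mice was 0.948. Whether reads of miR-139-5p are also counted on the hairpin is not known. If they are, a part is correlated with its whole, so no p is attached to the values for the hairpin.

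In the 6 WT mice, where levels varied less, the relations were weaker. For miR-139-5p and miR-139-3p, r was 0.398 (exact permutation p = 0.453, adjusted 0.497) and rho was 0.371 (exact permutation p = 0.497, adjusted 0.497). For miR-139-5p and the hairpin, r was 0.918 and rho was 0.714. That relation rests on WT replicates 1 and 5, since r was 0.627 without them. All tests were two-sided, and the features of a mouse share a library, its depth and its scaling factor. A difference between the genotypes in these relations was not tested.

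**Figure D4:**
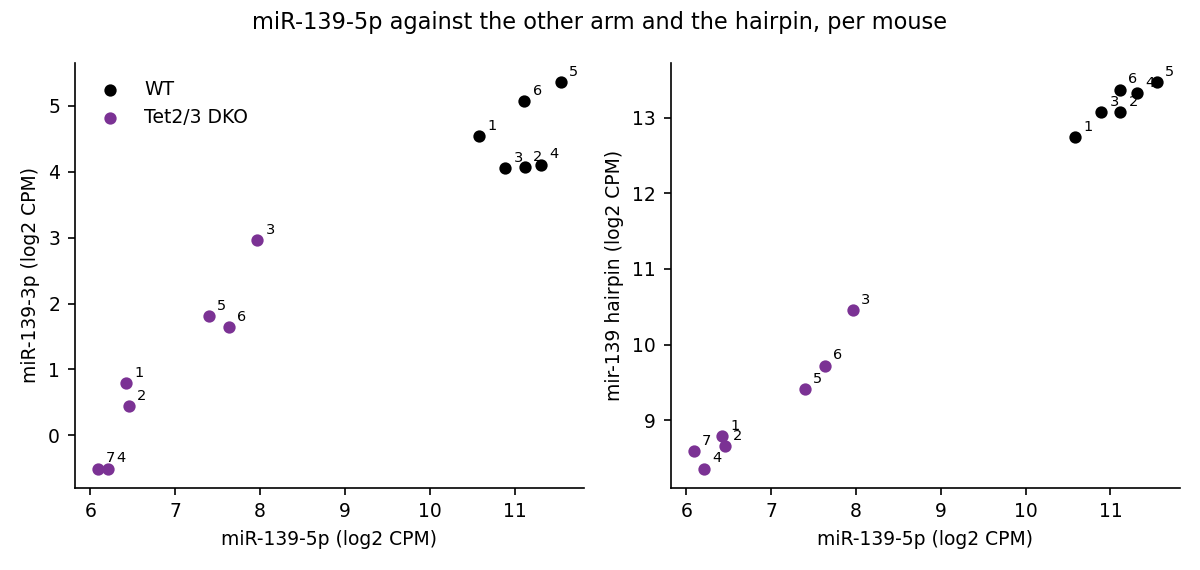
Log2 CPM of miR-139-5p in each mouse against miR-139-3p (left) and against the mir-139 hairpin (right), with points labelled by replicate number in black for WT and purple for Tet2/3 DKO. Within Tet2/3 DKO the mice keep nearly the same order on all axes, with replicate 3 highest, and the lowest 3p points are the 2 mice with 0 counts.

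The features whose pattern over the 13 libraries was most like that of miR-139 were of other families. Likeness was the root mean square difference of log2 CPM, each taken relative to its WT mean, among tested features with a mean of at least 50 counts. For scale, miR-139-5p differed from its own hairpin by 0.206 and from miR-139-3p by 0.695, and from the median mature sequence by 3.21. The nearest other mature sequence was miR-8117, at 1.30, followed by let-7b-5p (1.35), let-7c-5p (1.43) and the pair miR-486a-5p and miR-486b-5p (1.45), which have identical counts. All of these have a seed unlike those of miR-139 where RefSeq gives their sequence, shown here with bases 2 to 8 in capitals.
miR-8117: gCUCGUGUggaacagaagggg
let-7b-5p: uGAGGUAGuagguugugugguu
let-7c-5p: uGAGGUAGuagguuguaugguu

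miR-8117 fell about as far as miR-139-5p but ordered the mice differently. miR-8117 averaged 117 ± 80.1 CPM (SD, n = 6) over WT mice, against 7.27 ± 5.07 CPM (SD, n = 7) over Tet2/3 DKO mice, and its log2 fold change was -4.02 (SE 0.491). It was highest in WT replicate 1, at 273 CPM, the WT mouse lowest in miR-139-5p. In Tet2/3 DKO replicate 3, the highest for miR-139-5p, miR-8117 was 2.85 CPM, the second lowest of the 7. let-7b-5p, of the let-7 family, differed less, at a log2 fold change of -2.55 (SE 0.147).

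Among hairpins the nearest to mir-139 was mir-451a, which shares its counts with mir-451b and is made abundantly in red cells. Its root mean square difference was 0.894, against a median of 3.14 over hairpins. mir-451a averaged 188 ± 42.3 CPM over WT mice, against 19.7 ± 12.4 CPM over Tet2/3 DKO mice, and its log2 fold change was -3.31 (SE 0.310). Its order among Tet2/3 DKO mice was another one. Replicate 7 was highest for mir-451a at 42.5 CPM and second lowest for mir-139 at 384 CPM, and replicate 3, highest for mir-139, had 13.8 CPM of mir-451a. The hairpins let-7b (1.17), let-7c-2 (1.21) and let-7c-1 (1.27) came next. For miR-139-3p the list held let-7b-5p (1.19), miR-486a-5p and miR-486b-5p (1.22), let-7c-5p (1.26) and the hepatocyte miRNA miR-122-5p (1.36), whose genotypes overlapped.

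**Figure D5:**
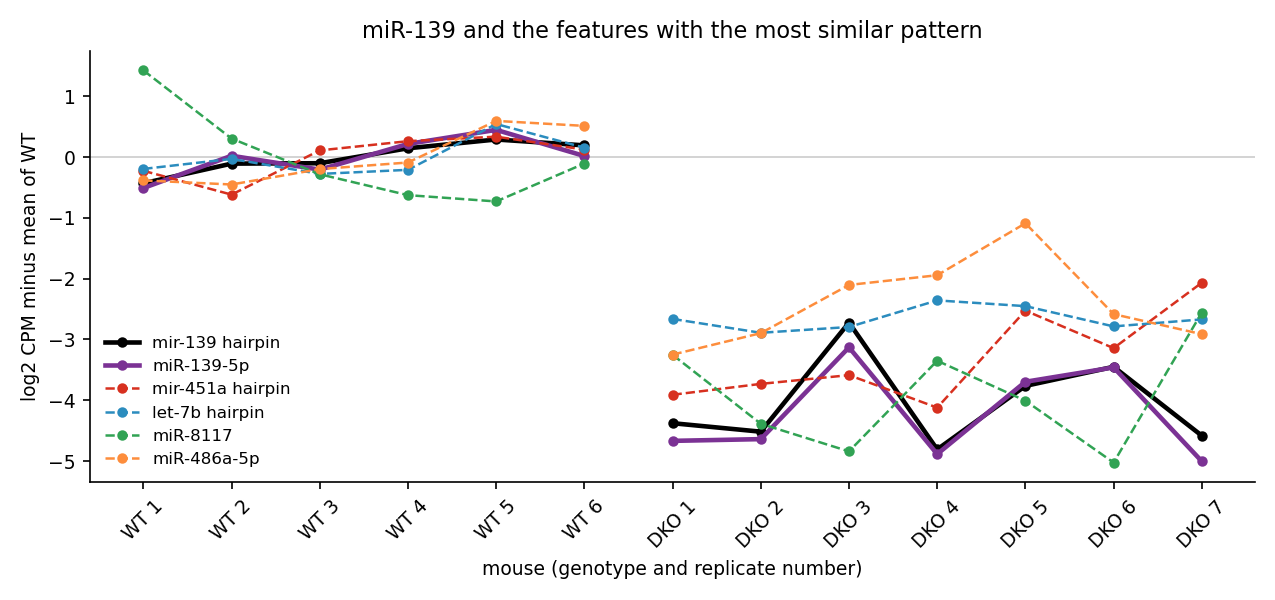
Log2 CPM minus the WT mean for the mir-139 hairpin and miR-139-5p (solid lines) and for mir-451a, let-7b, miR-8117 and miR-486a-5p (dashed lines) in the 6 WT and 7 Tet2/3 DKO mice. All 6 fall in Tet2/3 DKO, and the solid lines share their peaks at Tet2/3 DKO replicates 3, 5 and 6.

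Because red cell miRNAs fell too, hairpins of other cell types were set beside miR-139. The mRNAs that mark iNKT cells are not measured by small RNA-seq. The lymphocyte hairpins, among them mir-142a, mir-150 and the mir-181 copies, had by far the highest summed level of the lists, at 187351 to 223764 CPM in WT and 180738 to 251579 CPM in Tet2/3 DKO. Of 7 of these hairpins 2 were lower and 5 were higher in Tet2/3 DKO (edgeR's quasi-likelihood test, adjusted p under 0.05). Of the higher ones mir-181a-1 and mir-181a-2 have nearly the same counts and are hardly independent. Over all 350 tested hairpins 59.7% were called by the same rule, 27.1% lower and 32.6% higher. The 95 lower calls behind that share became 56 with library size only and 160 with DESeq2.

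Several lists of non-lymphoid cells were lower in Tet2/3 DKO as well. Red cell hairpins summed to 803 to 2242 CPM in WT and to 175 to 657 CPM in Tet2/3 DKO, and all 3 tested were lower. In the sum mir-486a and mir-486b enter separately although their counts are nearly the same. Stroma hairpins summed to 62.2 to 187 CPM and to 9.71 to 37.9 CPM, with all 4 tested lower. Of these mir-199a-1, mir-199a-2 and mir-199b have nearly the same counts, enter the sum separately and are hardly independent. The myeloid hairpin mir-223 was 20.1 to 310 CPM in WT and 0 to 19.2 CPM in Tet2/3 DKO, and was lower. The hepatocyte hairpin mir-122 was 4.25 to 22.8 CPM and 0 to 2.99 CPM, too few counts to be tested. Its arm miR-122-5p was more abundant, at 46.9 to 883 CPM in WT and 3.16 to 49.3 CPM in Tet2/3 DKO, and was lower although the ranges overlapped (-3.87 on the log2 scale with an SE of 1.00, edgeR adjusted p = 0.00625).

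The other lists overlapped between genotypes. Epithelial hairpins summed to 170 to 291 CPM in WT and to 176 to 237 CPM in Tet2/3 DKO, with 0 of 4 called. The endothelial hairpin mir-126a was 102 to 235 CPM and 95.6 to 145 CPM and was not called. Neural hairpins, listed because miR-139 is abundant in brain, summed to 711 to 2501 CPM and to 558 to 861 CPM, with mir-128-1 lower and mir-138-1 higher of 4 tested, the former not without WT replicate 3 (log2 fold change -0.18, adjusted p = 0.211). Of the neural hairpins with few counts, mir-124-1 and mir-124-3 had 0 counts in all Tet2/3 DKO libraries and in 4 of 6 WT libraries each. mir-124-2 was at 0 in 4 of 7 Tet2/3 DKO and 2 of 6 WT libraries, with 10 and 15 counts in all. The mir-9 hairpins, also too few to be tested, were divided. Mean CPM in WT and Tet2/3 DKO was 1.09 and 3.25 for mir-9-1, 0.238 and 1.81 for mir-9-2, and 5.83 and 3.04 for mir-9-3. No listed hairpin was at 0 in all 13. In every WT mouse mir-139 was above the summed red cell, stroma, myeloid, hepatocyte, epithelial, endothelial and neural levels. Among Tet2/3 DKO mice mir-139, at 328 to 1399 CPM, overlapped the red cell sum (175 to 657 CPM) and the neural sum (558 to 861 CPM). The cells had been depleted of CD24+ thymocytes and sorted as live cells positive for TCRβ and the lipid-loaded tetramer. All of the levels above were counted in these sorted samples. The part of red, stromal, myeloid and hepatic cells or their RNA in the fall of miR-139 was not tested.

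The hairpin near mir-139 on chromosome 7 that had enough counts to be tested was not lower in Tet2/3 DKO. Within 10 Mb the hairpin table lists mir-326, mir-3102, mir-6394 and mir-708. mir-326, in an intron of Arrb1 at a distance of 1.92 Mb, averaged 22.6 ± 11.7 CPM (SD, n = 6) for WT, against 31.6 ± 4.93 CPM (SD, n = 7) for Tet2/3 DKO. The log2 fold change of 0.53 (SE 0.320) did not pass the test (adjusted p = 0.165, edgeR's quasi-likelihood test). It passed without WT replicate 1 (0.76, adjusted p = 0.0445) and with library size only (0.85, adjusted p = 0.0361). Its arm miR-326-3p averaged 25.7 ± 9.37 CPM for WT, against 41.7 ± 4.86 CPM for Tet2/3 DKO, and was higher in Tet2/3 DKO (log2 fold change 0.70, SE 0.238, adjusted p = 0.0158 from the same test). Without WT replicate 3 or 5 this call was lost (0.47, adjusted p = 0.0684, and 0.57, adjusted p = 0.0591), as it was with upper-quartile scaling (adjusted p = 0.0517). The nearest hairpin, mir-3102 at 0.593 Mb, had 52 counts in all 13 libraries, and mir-6394 and mir-708 had 28 and 10, too few to be tested.

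Other intronic hairpins moved in both directions. Leaving out mir-139, 170 tested hairpins lie in an intron of a protein-coding gene on the same strand. Of these 34 were lower (20.0%) and 78 were higher (45.9%), beside 27.1% and 32.6% of all tested hairpins, with a median log2 fold change of 0.43 beside 0.02. The lower ones were 18 with library size only, 55 with the filter of at least 1 count in 1 library and 60 with DESeq2. Many of the 170 tested intronic hairpins are repeat copies inside Sfmbt2. Without those, 34 of 102 were lower (33.3%) and 16 were higher (15.7%), with a median of -0.19. Leaving them out was a choice made after the values were seen, and it turns the direction. Intronic hairpins lower in Tet2/3 DKO included mir-23b (log2 fold change -1.60) and mir-26b (-0.77), in Ctdsp1, and higher ones included mir-106b (0.88), in Mcm7, and let-7e (1.38), in Spaca6. For mature sequences, 48 of 184 were lower (26.1%) and 64 were higher (34.8%), beside 27.4% lower and 28.2% higher, or 55.6% called, of all 401 tested. Without the copies inside Sfmbt2, 48 of 131 were lower (36.6%) and 23 were higher (17.6%), with a median of -0.28, so the direction turned.

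Other miRNAs known to fall when T cells are activated, the group miR-139 is counted in, were divided. Of 22 tested hairpins 11 were lower and 5 were higher, beside 27.1% lower and 32.6% higher of all tested hairpins, with a median log2 fold change of -0.42 beside 0.02. Copies enter these counts separately and are hardly independent. Among the lower ones are mir-26a-1 (-0.54) with mir-26a-2 (-0.53), and mir-29b-1 (-1.04) with mir-29b-2 (-1.05). The lower ones included mir-150, which restrains the transcription factor Myb, at 20634 ± 4152 CPM for WT, against 8488 ± 1956 CPM for Tet2/3 DKO (log2 fold change -1.28). Also lower were mir-29a (-0.95), whose family targets T-bet, mir-142a (-0.93), found throughout blood cells, and mir-26b. With scaling by library size only, 6 hairpins of this list were lower and 8 were higher. The higher ones with TMM scaling were mir-101b (0.36), a call lost with RLE (0.27) or upper-quartile scaling (0.12), and all 4 copies of mir-181a and mir-181b, which set the signalling threshold of the T cell receptor, such as mir-181a-1 (0.88). The lowest log2 fold change of the list was -1.28. That none of these hairpins fell as far as mir-139 is no separate result, since miR-139 was chosen for its large fall.

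The mature sequences of the list were similarly divided. Of 30 tested 15 were lower and 4 were higher, beside 27.4% and 28.2% of all tested mature sequences, with a median of -0.49 beside -0.01. miR-26b-5p (-1.25), miR-29b-3p (-1.24) and miR-150-5p (-1.18) were lower. The 4 higher ones were 3p arms of mir-181a and mir-181b copies, such as miR-181a-2-3p (2.02). Their 5p arms were not called. miR-181a-5p, at rank 2 of mean CPM in WT, had a log2 fold change of -0.03 (edgeR adjusted p = 0.832). For miR-181b-5p it was 0.19 (edgeR adjusted p = 0.210).

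miRNAs known to rise when T cells are activated were mostly higher where they were called. Of 18 tested hairpins 10 were higher and 1 was lower, beside 32.6% and 27.1% of all tested hairpins, with a median log2 fold change of 0.68 beside 0.02. mir-31 rose most, from 168 ± 74.9 CPM in WT to 3224 ± 847 CPM in Tet2/3 DKO (log2 fold change 4.25). mir-17 (0.74) and mir-20a (0.66), of a cluster that promotes proliferation, and mir-21a (0.77) were higher, and mir-92a-1 of the same cluster was lower (-0.47). That last call was lost with scaling by library size only (-0.14), and upper-quartile scaling left 6 higher and 2 lower. Among mature sequences 10 of 25 were higher and 2 were lower, miR-92a-3p (-0.41) and miR-221-3p (-0.57), beside 28.2% and 27.4% of all tested mature sequences, with a median of 0.46. Library size only left 16 higher and 0 lower. These lists were written with earlier results of the same mice known, and their counts are a description.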

How the data were processed

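Small RNA was sequenced from thymic iNKT cells of 6 WT and 7 Tet2/3 DKO mice, 1 library each. Reads went through nf-core/smrnaseq at default parameters, and the authors deposited raw counts per hairpin and per mature sequence, without normalization. The labels name mm10, the same assembly as GRCm38. The aligner, the miRNA database release and the treatment of reads that match several sequences are not given in the sources used here. Each column carries the genotype and number of its mouse, and all columns were used.

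With edgeR 4.0.16, filterByExpr (genotype as group, minimum count 10 and minimum total 15) left 350 hairpins and 401 mature sequences. Libraries were scaled by TMM, and genotypes were compared by the robust quasi-likelihood test, with Benjamini-Hochberg adjustment within each table and a threshold of 0.05. The SE given with a fitted log2 fold change is the absolute fold change divided by the square root of that test's F statistic. Log2 CPM used a prior count of 2. Relations within a genotype used exact permutation tests (scipy 1.17.1), adjusted over 8 values. The fits were tested on simulated counts with known changes. R 4.3.3, Python 3.11.15, DESeq2 1.42.0 and matplotlib 3.10.9 were used.

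The members and lists were chosen with earlier results of these data known. Named features were miR-139, the 5 nearest patterns per member, rank neighbours, seed relatives, hairpins within 10 Mb and members of the lists, and which list members are named was decided after their values were seen. Positions come from GENCODE and RefSeq annotation of GRCm38 and matched 1112 of 1127 hairpin names. Counts of no pair of libraries of one genotype agreed within sampling noise, with a chi-square per degree of freedom of at least 15.0. Alternatives were other scalings and filters, DESeq2, the replicate number as a block, other added counts and leaving out each mouse.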

Additional observations from a re-analysis of the deposited data

Results flagged for a closer look

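Values within each genotype were checked by Dixon's test for a mouse far from the others, over miR-139, its ratios, the features of similar pattern, mir-326 with its arm and the summed cell type hairpins. Of 52 groups 3 held such a mouse, and about 2.6 would be found by chance. None of them concerns miR-139 itself. WT replicate 3 had the highest level of the myeloid hairpin mir-223, at 310 CPM, with 60.0 CPM in the next WT mouse. The same mouse had the highest summed level of neural hairpins, at 2501 CPM, with 991 CPM in the next. Tet2/3 DKO replicate 7 had the lowest summed level of neural hairpins in its genotype, at 558 CPM, with 733 CPM in the next.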

How the results depend on the processing

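The fall of miR-139 kept its direction under all alternatives that gave a value. Its log2 fold change was from -4.13 with upper-quartile scaling to -3.55 with library size only for the hairpin, from -4.27 to -3.85 for miR-139-5p and from -3.82 to -3.39 for miR-139-3p over the 4 scalings. With library size only, the median log2 fold change of all tested features moved by 0.34 for hairpins and by 0.25 for mature sequences, and with upper-quartile scaling by -0.24 and -0.16. RLE moved it by -0.11 for hairpins. DESeq2 gave -3.96, -4.05 and -3.60. Leaving out each mouse gave from -4.20 to -3.76, from -4.36 to -4.02 and from -4.35 to -3.41. The filter of at least 10 counts in every library left no value for miR-139-3p, and the arm ratio with no count added could not be computed, since 2 mice had 0 counts. With 1 count added to each arm the difference of the log2 arm ratio was -0.07, and without each mouse it was from -0.17 to 0.56.

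Replicate numbers 1 to 4 did not pair the mice, but 5 and 6 shared some pattern between genotypes. Deviations of same-numbered mice correlated from -0.05 to 0.34 for hairpins and from 0.01 to 0.34 for mature sequences. Only replicates 5 and 6 matched their own number best. In both genotypes miR-122-5p was highest in these replicates, at 883 and 762 CPM in WT and 49.3 and 43.6 CPM in Tet2/3 DKO. WT replicates 5 and 6 were also highest for the mir-139 hairpin (11311 and 10577 CPM) and for miR-139-3p (40.3 and 33.0 CPM). For miR-139-5p WT replicate 6 was not among the highest. Tet2/3 DKO replicates 5 and 6 were below replicate 3 and above the other mice in each miR-139 feature. What these mice share is not given by the labels. With the number as a block the log2 fold changes were -3.95, -4.17 and -3.82, and no count of calls moved by over 1.5 times.

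Counts of calls depended on scaling and filter. Lower hairpins numbered 95, but 56 with library size only, 156 with at least 1 count in 1 library and 160 with DESeq2. Intronic hairpins lower were 34, but 18, 55 and 60 under the same settings, and without Sfmbt2 16 hairpins and 23 mature sequences of the intronic list were higher. For hairpins of the list that falls on activation, library size only gave 6 lower and 8 higher. Of the list that rises, the lower hairpins were 0 with library size only, 2 with upper-quartile scaling and 0 with at least 1 count in 1 library, and the higher ones were 6 with upper-quartile scaling. For its mature sequences, library size only gave 0 lower and 16 higher, and at least 1 count in 1 library gave 1 lower. The SD of mir-139 was from 0.179 to 0.291 in WT and from 0.527 to 0.813 in Tet2/3 DKO without each mouse, lowest without WT replicate 1 and Tet2/3 DKO replicate 3, and that of miR-139-3p in Tet2/3 DKO was 2.05 with a prior count of 0.5. The cause of these moves was not tested. Of 43 other features followed under the alternatives, 7 had a call that changed, mir-326, mir-101b, mir-92a-1, mir-128-1, miR-326-3p, miR-92a-3p and miR-221-3p, and none changed sign. Leaving out the shallowest library of each genotype together, chosen after seeing the data, gave -3.85, -4.04 and -3.44 for the 3 features. Depth limits the 3p arm most, with at most 20 counts in a Tet2/3 DKO library.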
